A study of Mus musculus with 12 samples.

Results

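The genes described here are 10 markers of intestinal stem cells and crypt progenitors, namely Lgr5, Ascl2, Olfm4, Smoc2, Tnfrsf19, Lrig1, Bmi1, Msi1, Cd44 and Sox9. They were chosen by name from general knowledge of the crypt, not by a threshold on their values, and all 10 were among the 24906 genes listed in each of the expression tables. In the small intestine, stem cells at the crypt base are kept by WNT and R-spondin signals from their niche, and LGR5 is a receptor for R-spondin that marks these cells. BMP signals, which are relayed through SMAD4, are high towards the villus and low at the crypt base, where BMP antagonists protect the stem cells. SMAD4 is the shared partner of the receptor-activated SMAD proteins in the BMP and TGFβ pathways, and its loss is common in advanced colorectal cancer.

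The data are 12 RNA-Seq libraries of mouse small-intestinal tumor organoids, which are epithelial structures grown in culture from tumor tissue. All libraries had the genotype label Smad4KO;BRAFV600E/+;pINDUCER-SMAD4. By that label the controls also lacked SMAD4, carried the activated BRAF allele and held the dox-inducible lentiviral SMAD4 construct. The organoids came from mice with Villin-CreERT2, a driver active in the intestinal epithelium, and were selected with puromycin after transduction. A group was either left untreated or given 4 µg/mL doxycycline (dox) for 48 h, in the basement membrane extract BME R1 or on tissue culture plastic without it. In BME there were untreated libraries of organoid lines 682, 700 and 889, dox libraries of lines 700 and 889, plus 1 library of line 682 with the treatment label "4ug/mL Doxycycline (Mock)". On plastic, lines 560, 700 and 889 each had 1 untreated and 1 dox library. Each line number in the titles was read as 1 organoid line from 1 animal. Lines 682 and 560 each occur in 1 environment, and lines 700 and 889 occur in both. Per the study's methods tamoxifen was given to young adult mice, and tumor organoids were derived from macroscopic tumors. An interval of months after tamoxifen is given in a figure legend of the study, for the organoids pictured there. The culture medium contained R-spondin and the BMP antagonist Noggin.

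The labels of the mock library are at odds, as its title and genotype are those of an induced library. Smad4 there went from 8.88 FPKM (untreated) to 10.3 FPKM (mock), against 6.53 to 17.2 FPKM in line 700 and 6.23 to 27.3 FPKM in line 889. FPKM counts the fragments of a gene per kilobase of transcript, scaled to the library, and is thus a level per length. Following the study, which counts 4 control and 2 dox libraries in BME, the mock library was placed in the control arm, and the limma changes of the members in BME are also given without it. On plastic, Smad4 was between 1.54 and 4.76 FPKM untreated and between 18.1 and 73.6 FPKM with dox. Over the induced gene Smad4 itself and the BMP target genes Id1, Id2 and Id3, the median change with dox was 2.05 in BME and 2.91 on plastic. Id2 on plastic changed by -0.50 and was lower with dox in lines 700 (-0.68) and 889 (-1.39) but not in line 560 (0.57). Of the 4 genes, 3 were higher at an unadjusted limma p under 0.05 in each environment, against 2.62% of all genes tested in BME and 4.56% on plastic. These were Id1, Id3 and Smad4 itself, whose rise with dox is built into the design. The limma change was 2.73 for Id1 and 4.09 for Id3 in BME, and 2.39 and 3.90 on plastic.

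Libraries held 14534248 to 16328739 rebuilt reads in BME and 17049724 to 21102133 on plastic. All 7 epithelial markers examined (Epcam, Cdh1, Krt8, Krt18, Krt19, Vil1 and Cdx2) were above 1 FPKM in every group. Their sum was 3892 to 4876 FPKM in the BME control libraries and 7502 to 9520.0 FPKM in the BME dox libraries, and 11665 to 17185 FPKM on plastic. In any library the summed markers reached at most 5.41 FPKM for fibroblasts (6 genes), 3.65 FPKM for endothelium (4 genes) and 1.07 FPKM for neurons and glia (3 genes). The 6 immune markers summed to between 2.83 and 38.8 FPKM, with 1 gene above 1 FPKM. The part of these markers in the results below was not tested.

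Promoter sequence from RefSeq was found for 6 of the 10 genes (Ascl2, Bmi1, Cd44, Lrig1, Olfm4 and Tnfrsf19), covering 250 bases before and 50 bases after a start site. The sequences below come from the GRCm38.p6 table and each matched NCBIM37, the build used for all coordinates here, exactly once. Ascl2 and Tnfrsf19 are shown because their levels followed those of Lgr5 across libraries, and Cd44 because its levels did not. Capitals mark the letters CTTTGA on either strand (TCAAAG on the other), the core bound by TCF/LEF factors, the DNA-binding partners of β-catenin in WNT signaling. The Ascl2 promoter lies on the minus strand at chr7:150155120-150155419.
Ascl2: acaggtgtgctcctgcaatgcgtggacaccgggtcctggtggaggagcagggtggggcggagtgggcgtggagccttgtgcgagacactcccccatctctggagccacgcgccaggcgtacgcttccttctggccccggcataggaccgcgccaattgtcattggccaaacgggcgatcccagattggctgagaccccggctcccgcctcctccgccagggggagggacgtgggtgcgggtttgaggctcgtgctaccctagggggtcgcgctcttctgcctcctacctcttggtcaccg
Tnfrsf19 has 2 annotated starts on the minus strand, at chr14:61656775-61657074 and chr14:61665643-61665942.
Tnfrsf19 start 1: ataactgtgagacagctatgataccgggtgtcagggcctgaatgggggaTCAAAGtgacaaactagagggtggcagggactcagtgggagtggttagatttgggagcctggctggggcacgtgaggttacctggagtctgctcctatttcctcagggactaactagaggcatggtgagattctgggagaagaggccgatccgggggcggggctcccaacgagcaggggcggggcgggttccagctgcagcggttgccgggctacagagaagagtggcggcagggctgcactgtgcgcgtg
Tnfrsf19 start 2: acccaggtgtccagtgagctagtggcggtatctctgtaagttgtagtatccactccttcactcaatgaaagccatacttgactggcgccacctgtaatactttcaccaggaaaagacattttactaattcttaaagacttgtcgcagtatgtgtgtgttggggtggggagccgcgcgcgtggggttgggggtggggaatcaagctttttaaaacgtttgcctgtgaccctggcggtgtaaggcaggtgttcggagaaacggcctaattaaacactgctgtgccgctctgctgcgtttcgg
The Cd44 promoter lies on the minus strand at chr2:102741773-102742072.
Cd44: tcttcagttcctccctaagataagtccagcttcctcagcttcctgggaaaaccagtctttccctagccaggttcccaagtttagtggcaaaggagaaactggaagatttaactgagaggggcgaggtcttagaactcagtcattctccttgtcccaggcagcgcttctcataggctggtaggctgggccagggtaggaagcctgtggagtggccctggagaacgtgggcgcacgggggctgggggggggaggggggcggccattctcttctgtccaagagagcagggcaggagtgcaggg
The TCF/LEF core occurred once in these sequences, with its first base 201 bases before the Tnfrsf19 start in the first window, and it occurred in 16.0% of 32851 mouse promoters of the same length. The SMAD box CAGAC, searched on both strands, occurred once in that same Tnfrsf19 window, 115 bases before the start, and once in the Bmi1 promoter, against 49.6% of all promoters. The BMP-type SMAD motif GGCGCC, which reads the same on both strands, occurred once in the other Tnfrsf19 window and once in the Bmi1 promoter, against 11.9% of all promoters. A match describes the letters in the window, and nothing about binding was measured.

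In untreated BME organoids the 10 genes spanned the range from very abundant to barely detected. Smoc2, which encodes a secreted calcium-binding matrix protein enriched in crypt base stem cells, led the order in all 3 lines at 118, 104 and 133 FPKM (lines 682, 700 and 889). Lrig1, a negative regulator of EGF receptor signaling, was close to it with 103, 98.9 and 88.9 FPKM. Their spread overlapped with that of Sox9 (105, 97.9 and 52.5 FPKM), a transcription factor of crypt progenitors and Paneth cells, and of Cd44 (90.4, 71.1 and 109 FPKM), the hyaluronan receptor and WNT target. Lgr5 stood at 48.1, 43.0 and 71.1 FPKM, above 90.9% to 94.7% of all genes listed. Ascl2, the transcription factor that specifies crypt base stem cells, was at 42.0, 25.7 and 32.6 FPKM, below Lgr5 in each line. Tnfrsf19, a TNF receptor family member known as TROY, and Bmi1, a Polycomb subunit linked to reserve stem cells, overlapped at 11.5 to 23.0 FPKM and 15.1 to 23.8 FPKM.

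Olfm4, a secreted glycoprotein abundant in crypt base stem cells, and Msi1, an RNA-binding protein of progenitors, lay far below the rest. Olfm4 was at 0.0733, 0.0997 and 0.452 FPKM in untreated lines 682, 700 and 889, from 3, 4 and 20 rebuilt reads. Msi1 was at 0.875, 0.847 and 0.341 FPKM, from 19, 18 and 8 reads. So 8 of the 10 genes were well expressed in every untreated BME library, among them the crypt base markers Lgr5, Ascl2, Smoc2 and Tnfrsf19, while Olfm4 was near 0.

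**Figure D1:**
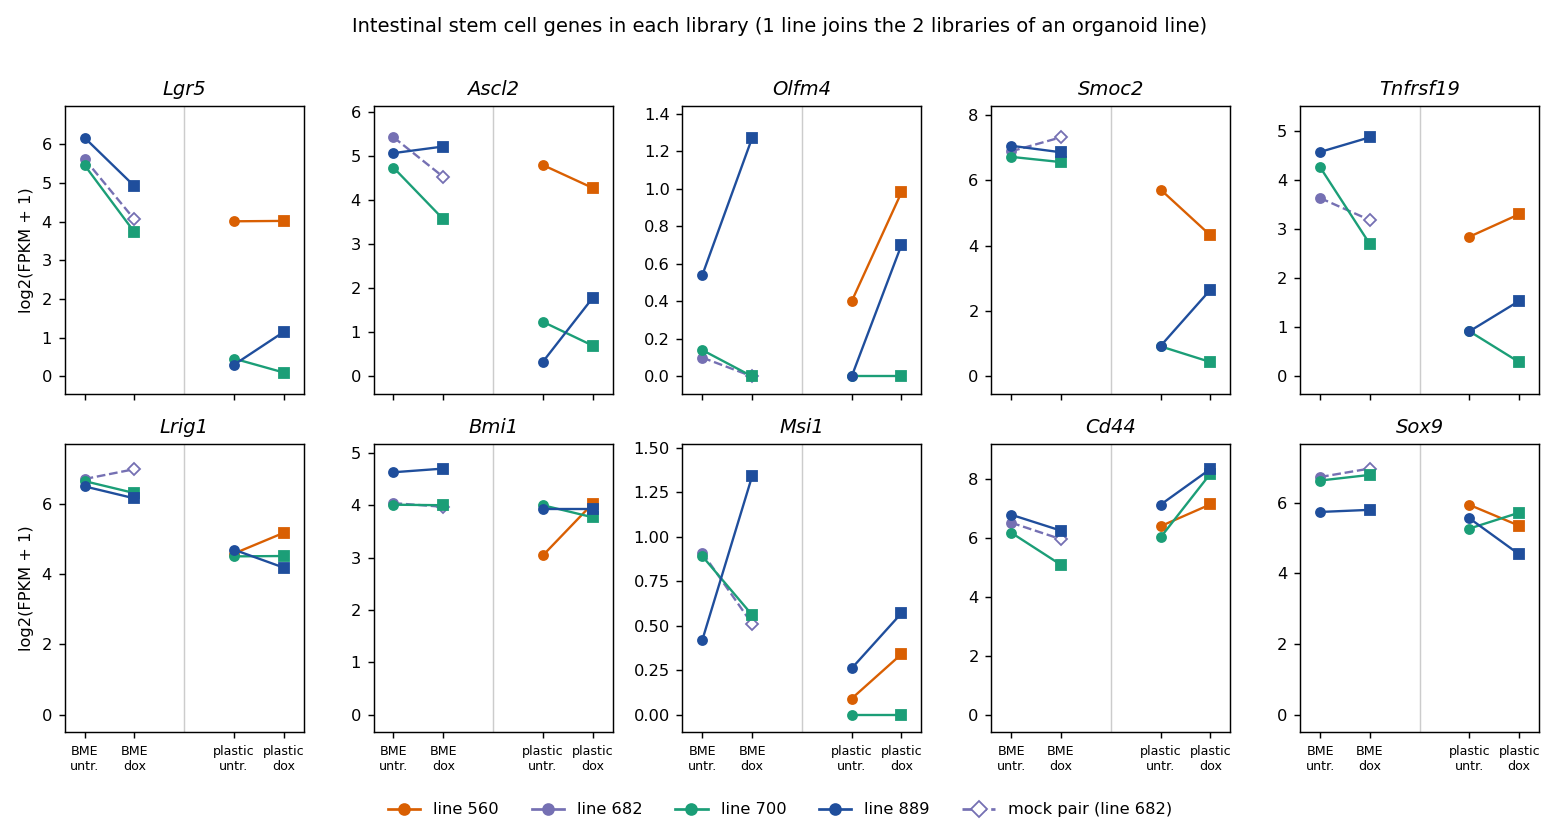
Level of each gene as log2(FPKM + 1) in every library, with a line joining the untreated (circle) and dox (square) libraries of an organoid line and a dashed line and open diamond for the mock pair. Lgr5 was lower in the treated library of all 3 BME pairs, and Lgr5, Ascl2, Smoc2 and Tnfrsf19 were near the bottom of the axis on plastic in lines 700 and 889 but not in line 560.

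The first comparison asked how the stem cell genes differed when SMAD4 was induced in BME. Lgr5 (chr10:114887367-115024836, minus strand) was at 12.3 FPKM with dox against 43.0 FPKM untreated in line 700. In line 889 it was at 29.2 FPKM with dox against 71.1 FPKM untreated. In line 682 it was at 15.7 FPKM in the mock library against 48.1 FPKM untreated. The treated library was thus the lower in every pair, the mock pair included, and the mock library lay between the dox libraries and apart from the untreated ones, which began at 43.0 FPKM. On the log2(FPKM + 1) scale the differences were -1.73 in line 700, -1.25 in line 889 and -1.55 in the mock pair, where the SD of all genes tested was 0.45, 0.49 and 0.42. Lgr5 was among 21 genes, 0.162% of the 12996 tested in BME, that were lower by over 1 in both dox pairs and in the mock pair. In these bulk libraries fewer cells of a type and less RNA of a gene per cell cannot be told apart.

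By limma, with the mock library among the controls, the Lgr5 change was -1.00 (SE 0.62, 95% interval -2.50 to 0.49, adjusted p 0.959), which did not pass. Without the mock library it was -1.42 (SE 0.42, unadjusted p 0.0181, limma adjusted p 1.000), and with line 682 left out altogether it was -1.49. It was smaller without dox line 700 (-0.41) and without untreated line 889 (-0.72). Blocking on the line gave -1.49 (limma adjusted p 0.671). If the mock library was counted with dox and the line was a block, the change was -1.51 (SE 0.12, unadjusted p 5.65e-05, limma adjusted p 0.0949). The Lgr5 difference was as large in the mock pair, in which Smad4 differed by 0.19, Id1 by -0.46, Id2 by -0.23 and Id3 by 0.41 (0 to 0.333 FPKM), as in the dox pairs, in which Id1 was higher by 3.02 and 1.76. The part of dox itself, apart from SMAD4, in the Lgr5 difference was not tested.

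The other crypt base markers did not share this pattern in every line. Ascl2 (chr7:150152727-150155169, minus strand) was at 10.8 FPKM with dox against 25.7 FPKM in line 700, at 36.2 against 32.6 FPKM in line 889, and at 22.2 against 42.0 FPKM in the mock pair. Its differences of -1.17, 0.15 and -0.89 therefore pointed down in line 700 and in the mock pair and up in line 889. Tnfrsf19 (chr14:61582671-61665692, minus strand) was at 5.50 FPKM with dox against 18.2 FPKM in line 700, at 28.4 against 23.0 FPKM in line 889, and at 8.16 against 11.5 FPKM in the mock pair. It split by line as Ascl2 did, with differences of -1.57, 0.29 and -0.45. Smoc2 (chr17:14416513-14541797, plus strand) was at 93.1 FPKM with dox against 104 FPKM in line 700, at 115 against 133 FPKM in line 889, and at 159 against 118 FPKM in the mock pair. Its differences were small at -0.16 and -0.21 in the dox pairs and 0.43 in the mock pair. The limma changes were -0.55 (SE 0.48) for Ascl2, -0.13 (SE 0.66) for Tnfrsf19 and -0.29 (SE 0.20) for Smoc2, and none passed (adjusted p 0.959 to 0.993). Without the mock library they were -0.69, -0.38 and -0.18, and blocking on the line moved Tnfrsf19 to -0.64. Without dox line 700 the Ascl2 change was 0.27 and that of Tnfrsf19 was 0.95. Olfm4 had 0 reads in dox line 700 and in the mock library and 61 reads (1.41 FPKM) in dox line 889, and its mean was under the minimum for testing. A count of 0 here allows up to 3 reads, or 0.0835 FPKM in dox line 700, so a difference from the 4 reads of its untreated pair was not detectable.

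Of the genes linked to reserve stem cells or to a broader set of progenitors, Lrig1 was lower in both dox pairs, Bmi1 hardly differed, and Msi1 went down in one dox pair and up in the other. Lrig1 (chr6:94554523-94650152, minus strand) was at 77.9 FPKM with dox against 98.9 FPKM in line 700, at 70.0 against 88.9 FPKM in line 889, and at 125 against 103 FPKM in the mock pair. Both dox libraries lay below all 4 control libraries, with a limma change of -0.48 (SE 0.17, 95% interval -0.89 to -0.07, unadjusted p 0.0295, adjusted p 0.959). It did not pass at the unadjusted level with the line as a block (-0.34, unadjusted p 0.0603), without the mock library (-0.39, unadjusted p 0.0526), or with the mock library counted with dox (-0.13). The unadjusted p was also above 0.05 without untreated line 682 (0.0599), dox line 700 (0.0560) or dox line 889 (0.136), each from limma. Bmi1 (chr2:18598645-18608256, plus strand) was at 15.0 FPKM with dox against 15.1 FPKM in line 700, at 25.0 against 23.8 FPKM in line 889, and at 14.6 against 15.4 FPKM in the mock pair. Its pairs differed by no more than 0.07, and the limma change of 0.19 (SE 0.28) had an interval of -0.49 to 0.87. Without the mock library it was 0.12. Msi1 (chr5:115879608-115905707, plus strand) was at 0.474 FPKM with dox against 0.847 FPKM in line 700, at 1.53 against 0.341 FPKM in line 889, and at 0.429 against 0.875 FPKM in the mock pair. At 8 to 35 reads per library its direction was not the same in both dox lines, and its limma change without the mock library was 0.21.

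Among the broad crypt progenitor genes, Cd44 was lower in every treated BME library than in its pair. Cd44 (chr2:102651298-102741822, minus strand) was at 32.7 FPKM with dox against 71.1 FPKM in line 700, at 74.8 against 109 FPKM in line 889, and at 60.7 against 90.4 FPKM in the mock pair. The differences were -1.10, -0.54 and -0.57, and the arms overlapped because dox line 889 lay above untreated line 700. Its limma change was -0.69 (SE 0.38, 95% interval -1.61 to 0.22, adjusted p 0.959), and it was -0.83 without the mock library and -0.11 without dox line 700. Sox9 (chr11:112643538-112649074, plus strand) was at 109 FPKM with dox against 97.9 FPKM in line 700, at 54.6 against 52.5 FPKM in line 889, and at 124 against 105 FPKM in the mock pair. Every pair differed upward by 0.06 to 0.24, while the limma change over unpaired groups was -0.23 (SE 0.42) and turned to 0.11 with the line as a block. Without the mock library it was -0.07.

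**Figure D2:**
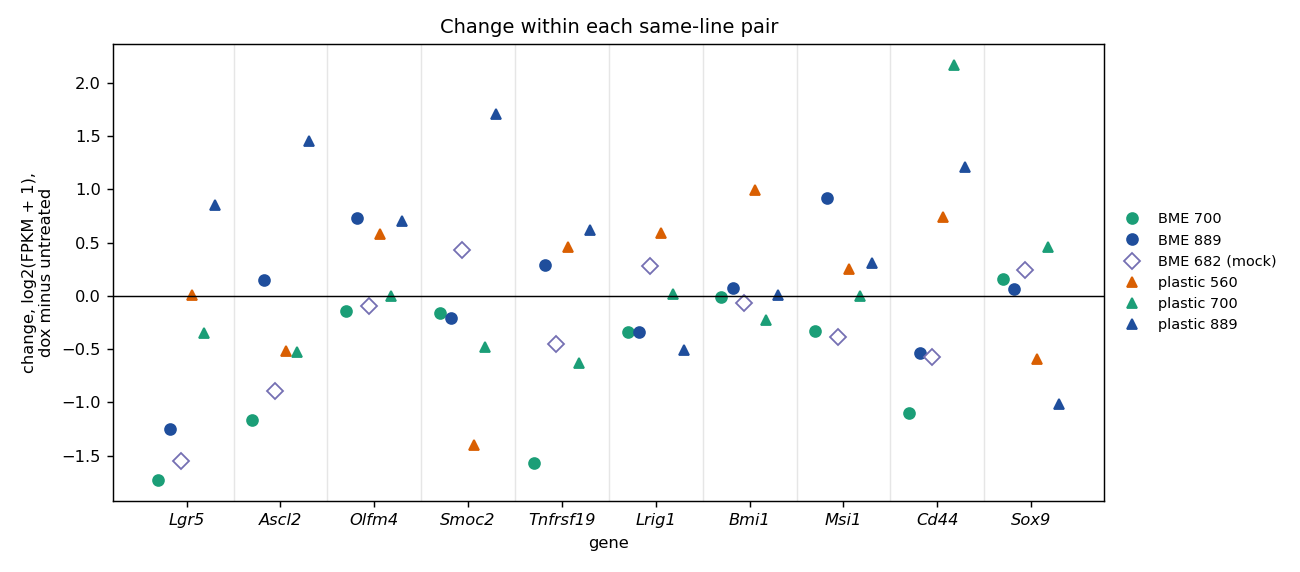
Difference in log2(FPKM + 1) between the dox and the untreated library of each organoid line for the 10 genes, with circles for BME, triangles for plastic and an open diamond for the mock pair. Lgr5 and Cd44 were below 0 in all 3 BME pairs, and Cd44 was above 0 in all 3 plastic pairs.

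Of the 9 genes tested in BME, 0 were called by limma (adjusted p under 0.05 together with a change of more than 1 in size), against 0.0231% of all genes tested. At an unadjusted p under 0.05, 1 of 9 was lower (Lrig1) and 0 were higher, against 1.47% and 2.62% of all genes. With the line as a block, or without the mock library, Lrig1 was above that level. Without the mock library Lgr5 was below it (unadjusted limma p 0.0181), though it did not pass after adjustment. The dox and control libraries of Lrig1 did not overlap (lower for 1 of 9, against 5.83% of all genes). Lgr5, Smoc2, Lrig1 and Cd44, 4 of the 9, were lower in both dox pairs, against 29.5% of all genes tested. The median change of the 9 was -0.29, where that of all genes tested was -0.01. By pair, the median of the 9 was -0.34 in line 700, 0.06 in line 889 and -0.39 in the mock pair, so line 889 did not share the downward median.

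On plastic, the same comparison was made in lines 560, 700 and 889. Without and with dox, Lgr5 was at 15.1 and 15.2 FPKM in line 560, at 0.374 and 0.0744 FPKM in line 700, and at 0.230 and 1.21 FPKM in line 889. The values in line 700 came from 35 and 6 rebuilt reads and those in line 889 from 23 and 92, so dox line 700 alone was close to the floor of 3 reads. Differences of 0.01, -0.35 and 0.85 pointed in no common direction, and the limma change was 0.17 (SE 1.32, 95% interval -3.00 to 3.33). It was -0.96 without dox line 560 and 1.38 without untreated line 560. With both libraries of line 560 left out, Lgr5 fell under the minimum for testing and had no value. That interval is wide enough to hold the change estimated in BME.

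Ascl2, in the same order, was at 26.8 and 18.4 FPKM in line 560, at 1.36 and 0.628 FPKM in line 700, and at 0.255 and 2.43 FPKM in line 889. Smoc2 was at 51.7 and 19.0 FPKM in line 560, at 0.895 and 0.360 FPKM in line 700, and at 0.909 and 5.26 FPKM in line 889. Tnfrsf19 was at 6.23 and 8.94 FPKM in line 560, at 0.892 and 0.219 FPKM in line 700, and at 0.895 and 1.91 FPKM in line 889. All 4 of these crypt base markers were lower with dox in line 700 and higher with dox in line 889, with a median difference of -0.51 and 1.15. In line 560, 2 were lower and 2 higher. None passed in limma (adjusted p 0.983 to 0.994), with SEs of 0.87 to 1.53. Olfm4 had 18 and 55 reads in line 560, 0 and 0 in line 700, and 0 and 27 in line 889, and was not tested.

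Line 700 and line 889 also differed on plastic in the differentiated lineage genes, a list of enterocyte, goblet, Paneth, enteroendocrine and tuft cell markers. The median difference over the 13 of these genes tested was -0.97 in line 560, -0.35 in line 700 and 2.13 in line 889. In line 889 with dox, 12 of the 13 were higher, as were all 4 crypt base markers, against 6222 of the 12333 genes tested on plastic. Defa24 was at 43.3 FPKM in that dox library and at most 0.960 FPKM in the others. Apoa1 was at 3.96 FPKM there and at most 0.797 FPKM in the others. Both reached the minimum for testing through the library in which they are counted as higher, so the count is a description. The immune marker Cd68 also moved with this library, from 2.70 FPKM untreated to 38.7 FPKM with dox, a log2 difference of 3.42 against -0.25 in line 560 and -0.24 in line 700, and its part was not tested. Over the 16 proliferation genes the median difference was -0.60, -1.07 and -1.21 in the same order, so in line 889 the 4 crypt base markers were higher while the proliferation genes had a median below 0, a contrast that was not tested. Lrig1 (-0.51) and Sox9 (-1.02) were lower in that pair, and the other crypt stem cell genes had a median of 0.00.

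Among the other members, Lrig1 was at 23.0 and 35.0 FPKM (without and with dox) in line 560, at 21.6 and 21.8 FPKM in line 700, and at 24.7 and 17.1 FPKM in line 889. Bmi1 was at 7.24 and 15.4 FPKM in line 560, at 15.0 and 12.7 FPKM in line 700, and at 14.2 and 14.3 FPKM in line 889. Untreated line 560 was the low library for Bmi1, and the other 5 lay between 12.7 and 15.4 FPKM. Sox9 was at 60.4 and 39.9 FPKM in line 560, at 37.5 and 51.8 FPKM in line 700, and at 46.2 and 22.3 FPKM in line 889. Limma changes were 0.03 (SE 0.28) for Lrig1, 0.26 (SE 0.30) for Bmi1 and -0.38 (SE 0.35) for Sox9, each with an interval that held 0. The Sox9 change was -0.05 without dox line 889 and -0.64 without dox line 700. Msi1 was at 0 in both libraries of line 700 and at 0.482 FPKM or less in the rest, and was not tested.

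Cd44 was the 1 gene of the 10 that was higher with dox in every line on plastic. Without and with dox it was at 82.9 and 139 FPKM in line 560, at 63.4 and 288 FPKM in line 700, and at 138 and 321 FPKM in line 889. The lowest dox library lay just above the highest untreated one, so the arms did not overlap. The differences were 0.74, 2.17 and 1.21, and the limma change was 1.37 (SE 0.42, 95% interval 0.37 to 2.38, unadjusted p 0.0150), which did not pass over all genes (adjusted p 0.499). Blocking on the line gave a limma adjusted p of 0.216. The unadjusted limma p was above 0.05 without untreated line 700 (0.0506) or dox line 889 (0.0532).

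Of the 8 genes tested on plastic, 0 were called, against 0.0324% of all genes tested there. Cd44 alone passed at an unadjusted p under 0.05, 1 of 8 against 4.56% of all genes in that direction. It was also the 1 of 8 that was higher in every pair (18.6% of all genes) and whose arms did not overlap upward (7.87%). The median change of the 8 was 0.14, where that of all genes tested was 0.01.

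**Figure D3:**
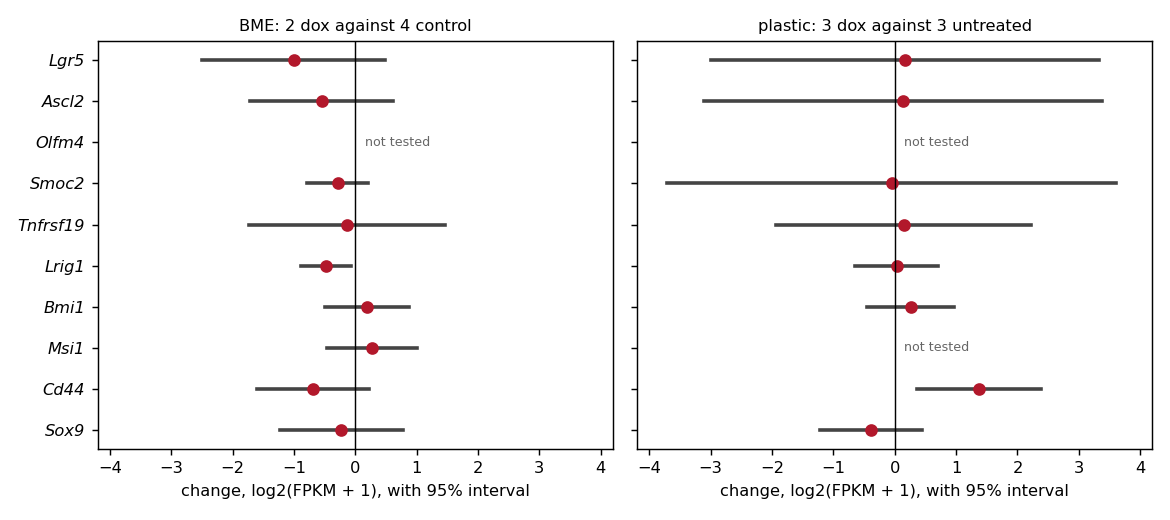
Change with dox estimated by limma on log2(FPKM + 1), as a point with its 95% interval, in BME (left) and on plastic (right). The interval left 0 outside for Lrig1 in BME and Cd44 on plastic at the unadjusted level, Lrig1 no longer with the line as a block or without the mock library, and neither passed after adjustment over all genes.

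Whether the dox change differed between environments was tested as an interaction over 11977 genes. For Cd44 the change was 2.07 higher on plastic than in BME (SE 0.61, 95% interval 0.72 to 3.41, unadjusted p 0.00618), and this did not pass over all genes (limma adjusted p 1.000). In lines 700 and 889 alone, which occur in both environments, the Cd44 difference was 2.51. For Lgr5 the difference was 1.17 (SE 1.64, 95% interval -2.46 to 4.80). It was 0.04 without plastic dox line 560 and 2.38 without plastic untreated line 560. With the line as a block it was 1.66 (unadjusted p 0.0289, limma adjusted p 0.994). No gene was called (0 of 11977, with 2.53% at an unadjusted p under 0.05), and the limma adjusted p was 1.000 for each of the 8 members in the fit.

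On plastic the crypt base markers stood higher in line 560 than in the other lines, with or without dox. For Lgr5, the lower line 560 library was at 15.1 FPKM and the highest of the other 4 at 1.21 FPKM, a gap of 2.86 on the log2(FPKM + 1) scale. For Ascl2 that gap was 2.50, for Smoc2 1.67 and for Tnfrsf19 1.31. Both line 560 libraries were above the other 4 for 4 of 8 members, against 13.3% of all genes tested, and by over 2 for Lgr5 and Ascl2, against 0.414%. This contrast and its cutoff were chosen after the values were seen, so the counts are a description. In addition, Lgr5 reached the minimum for testing on plastic (a mean of 0.5 FPKM) through line 560. Its mean over the other 4 libraries was below that minimum, whereas Ascl2, Smoc2 and Tnfrsf19 were above it without line 560. Among the other lists, line 560 was above for 6 of 13 differentiated lineage genes, 5 of them by over 2, and for 8 of 21 other crypt stem cell genes, 0 of them by over 2. Line 560 in BME was not analysed here. For Lrig1, Bmi1, Cd44 and Sox9 the line 560 libraries overlapped the other 4.

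Levels in BME and on plastic were set side by side for untreated lines 700 and 889. The tables were normalized separately, and this contrast with its cutoff of 2 (log2) was chosen after the values were seen. It is a description and was not tested. Over 13352 genes tested in either table the median difference, plastic minus BME, was -0.26 in line 700 and -0.28 in line 889. Lgr5 was 43.0 FPKM in BME and 0.374 FPKM on plastic in line 700, a 115-fold gap. In line 889 it was 71.1 and 0.230 FPKM, a 308-fold gap. Smoc2 showed gaps of 117-fold and 146-fold, Ascl2 of 19.0-fold and 128-fold, and Tnfrsf19 of 20.4-fold and 25.7-fold. These 4 of the 9 members with a value were lower on plastic by over 2 (log2) in both lines, against 2.30% of all genes.

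Of the differentiated lineage genes, 5 of 15 were also lower on plastic by over 2 in both lines. Tff3, the goblet cell peptide, showed gaps of 127-fold and 1919.8-fold, and Mmp7, the Paneth cell protease, of 165-fold and 369-fold. Among the other members the differences were smaller. Lrig1 was 4.58-fold and 3.59-fold lower on plastic, with log2 differences of -2.15 and -1.80. Sox9 was 2.61-fold and 1.14-fold lower. Bmi1 differed by -0.01 and -0.71, and Cd44 by -0.16 and 0.34. Cd44 therefore stood first in level among the 10 genes in all 6 plastic libraries, whereas Smoc2 stood first in all 3 untreated BME libraries. Of the 7 epithelial markers, 0 were lower by over 2 in both lines.

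**Figure D4:**
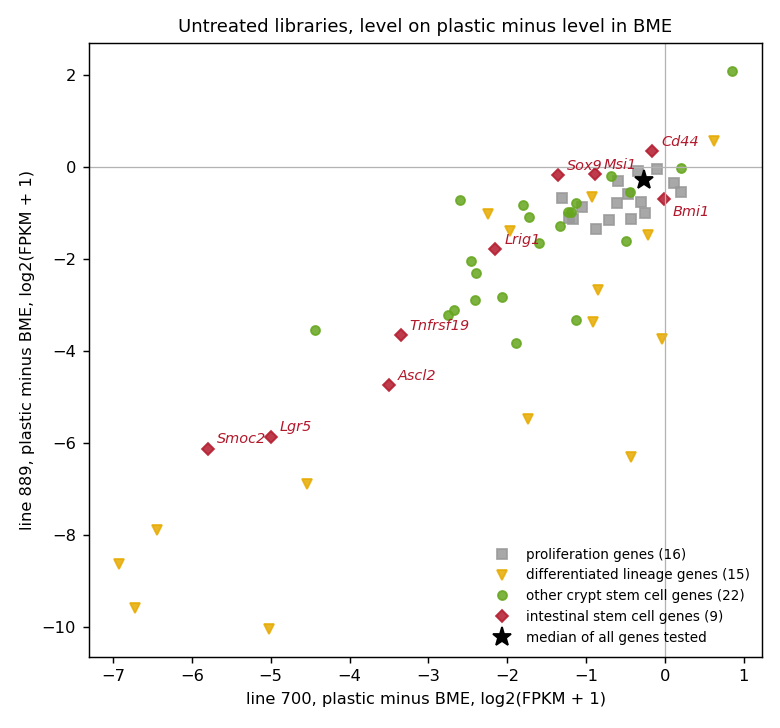
Level on plastic minus level in BME, as log2(FPKM + 1), for untreated line 700 (x axis) and untreated line 889 (y axis), with 1 point per gene, colours for the 4 gene lists and a star for the median of all genes tested. Lgr5, Smoc2, Ascl2 and Tnfrsf19 lie below -3 in both lines, while Bmi1 and Cd44 lie within 1 of the star and the proliferation genes lie between -1.35 and 0.20.

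Other genes of the crypt stem cell program were followed as a list of 24, which includes WNT feedback genes, stem cell signature genes and markers of slowly cycling or reviving cells. In BME 22 were tested and 0 were called, with 19 lower and 3 higher by their mean change and a median of -0.35. At an unadjusted p under 0.05, 4 of 22 were lower (1.47% of all genes tested), and 14 were lower in both dox pairs (29.5%). The list median was -0.44 in line 700, -0.19 in line 889 and -0.11 in the mock pair. Mex3a, an RNA-binding protein of slowly cycling stem cells, changed by -0.75 (SE 0.30, limma adjusted p 0.959), and Sp5, a WNT target, by -0.96 (SE 1.36). At the other end, Hopx, a marker of reserve stem cells, changed by 0.17 (SE 0.40) and Slc14a1, a urea transporter, by 0.50 (SE 1.19).

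On plastic 21 of the 24 were tested and 0 were called, with 12 higher, 9 lower and a median of 0.02. The kinase Cdk6 changed by -0.59 (SE 0.20) and Sp5 by -0.92 (SE 1.47), while Hopx changed by 1.37 (SE 0.81) and Ephb2, a WNT-controlled receptor that places cells along the crypt, by 0.77 (SE 0.65). Side by side in untreated lines 700 and 889, 7 of 22 were lower on plastic by over 2 in both lines, against 2.30% of all genes, and 0 were higher by over 2. These included Igfbp4 (24.0-fold and 12.4-fold), an IGF-binding stem cell signature gene, and Hopx (6.94-fold and 10.2-fold), both named after their values were seen.

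The proliferation genes were lower by mean change with dox in both environments. In BME 16 of 16 were lower with a median of -0.73, and 1 passed at an unadjusted p (1.47% of all genes in that direction). By pair their median was -0.98 in line 700, -0.03 in line 889 and -0.08 in the mock pair. Mki67, the proliferation marker, changed by -0.87 (SE 0.32), Mcm6, a subunit of the replicative helicase, by -0.88 (SE 0.37), Tyms by -0.36 and Pcna by -0.23. On plastic 16 of 16 were lower with a median of -1.00, and 7 passed at an unadjusted p (3.73% of all genes in that direction). Plk1 was at -1.27 (SE 0.57), Birc5 at -1.17 (SE 0.31), Tyms at -0.61 and Pcna at -0.09. None was called by limma in either environment.

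Of the 21 differentiated lineage genes, 15 were tested in BME with a median change of -0.15 and 13 on plastic with a median of 0.57. In BME the largest changes by mean were Sis (2.12, SE 1.66) and Alpi (1.35, SE 0.37), enzymes of the enterocyte brush border, and Tff3 (-1.24, SE 1.81), a goblet cell peptide, and Pou2f3 (-1.19, SE 0.61), a tuft cell factor. By pair, 10 of the 15 were lower in line 700, 11 in line 889 and 13 in the mock pair, with medians of -0.85, -0.77 and -1.00. On plastic the ends of the list were Defa24 (1.50, SE 1.45), Krt20 (1.32, SE 0.67), Mmp7 (-0.16, SE 2.44) and Fabp2 (-0.43, SE 0.36). None was called.

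**Figure D5:**
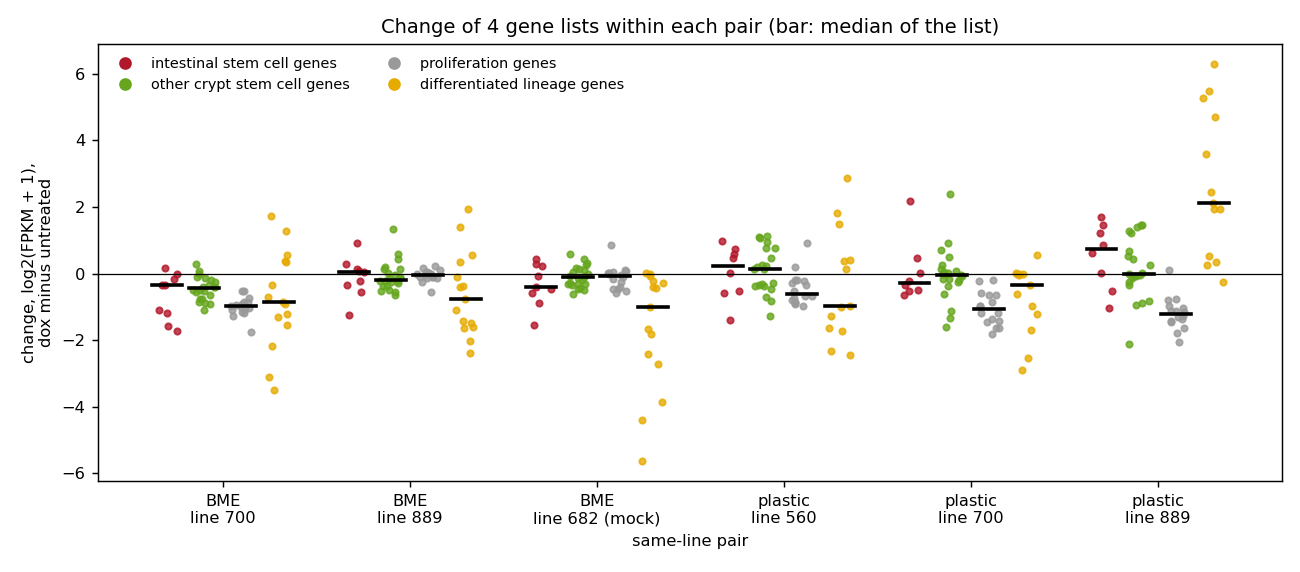
Difference in log2(FPKM + 1) between treated and untreated library in each same-line pair (x axis) for the tested genes of 4 lists, with 1 point per gene and a bar for the median of the list. The stem cell genes had a median of -0.34 in BME line 700 and 0.73 in plastic line 889, and the proliferation genes had medians below -0.5 in BME line 700 and in all 3 plastic lines.

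The genes whose pattern was most like that of Lgr5 were found by Pearson's r over the 12 libraries, centred on the mean of each table, among 11976 genes tested in both. These libraries share 4 lines, and line 560 stands apart from the rest on plastic, so r is given as a description. Sidt1, a transmembrane protein of the SID1 family, and Atoh1, the transcription factor of the secretory lineage, led with r of 0.97 each. Dpp4, a brush border peptidase, 1700066B19Rik and Ggt6, a gamma-glutamyltransferase family member, followed at 0.96. Atoh1 was at 2.26 and 0.632 FPKM in BME line 700, at 7.41 and 2.60 FPKM in line 889, and at 4.07 and 0.538 FPKM in the mock pair (untreated, then treated). On plastic Atoh1 was at 4.88 and 4.10 FPKM in line 560 and at 0.278 FPKM or less in lines 700 and 889. As for Lgr5, the treated library was the lower in every BME pair, the mock pair included, and line 560 stood above the other lines on plastic. Atoh1 was chosen by its r with Lgr5 over these libraries, so a shared pattern follows from that choice.

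Within the 10 genes, Ascl2 (r 0.95, order 12 of 11976), Tnfrsf19 (r 0.90, order 46) and Smoc2 (r 0.86, order 125) were near Lgr5. Lrig1 (0.37), Cd44 (-0.01), Sox9 (-0.05) and Bmi1 (-0.17) were not. Bmi1 and Sox9 ran opposite to each other (r -0.79 over the same 12 libraries). Among Lgr5, Ascl2, Smoc2 and Tnfrsf19, r between any pair of genes was 0.77 to 0.95.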

How the data were processed

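RNA-Seq libraries were grouped from the sample labels. Per the study's methods and the submitters' processing notes, the authors processed reads with kallisto and DESeq2 and name the mm9 build, with versions not given in the sources used here. The authors deposited FPKM values as 1 table per environment, each normalized on its own 6 libraries, so levels were not tested across tables. The authors' comparison tables hold a mean normalized signal per gene (used here only to rebuild reads), with fold changes, scores, p-values and adjusted p-values of their own tests that were not used. The deposited values are not counts. To rebuild reads, that mean signal was divided by the mean FPKM of a gene, and this factor turned the FPKM of each library into a normalized count. The count was then divided by the value of 1 read in that library, taken as its most common normalized count near 1. Of low values, 81.9% to 87.2% in BME and 75.6% to 87.1% on plastic fell within 0.02 of a whole read. The rebuilt reads give depth and 1 alternative (limma-voom), and limits from counts cover counting error only. All per-sample columns were used.

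Tests covered genes whose mean FPKM across a table's 6 libraries reached 0.5 (12996 in BME, 12333 on plastic) on log2(FPKM + 1), which understates the change of low genes. Groups were compared with limma 3.58.1 in R 4.3.3 (lmFit, eBayes with trend, two-sided) without a block, with Benjamini-Hochberg adjustment over all genes tested. Scripts were tested on simulated data. Libraries of a line were taken to come from the same animal, and their deviations from the group means correlated (r 0.18 for the mock pair, 0.61 and 0.66 in BME, and 0.46, 0.61 and 0.25 on plastic), so the line was used as a block in an alternative. Each group has 1 library per line, except that the BME control arm holds 4 libraries from 3 lines, as line 682 gave both the mock library and an untreated one. The p-values measure the spread between lines and preparations together. Alternatives were a pseudocount of 0.1, no filter, centring on the library median, limma-voom, other placements of the mock library, and leaving out libraries or lines. The text names all 10 genes, the 2 largest rises and 2 largest falls of each other list, the 5 genes most like Lgr5, and Smad4 with Id1, Id2 and Id3, and outside that rule Igfbp4 and the immune marker Cd68, named after their values were seen. Members and lists were chosen with earlier results of these data known. Gene coordinates are from the NCBIM37 annotation.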

Additional observations from a re-analysis of the deposited data

Results flagged for a closer look

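Bmi1 in the BME control libraries had 1 library set apart from the others. Untreated line 889 was at 23.8 FPKM and the other 3 were at 14.6 to 15.4 FPKM, so the gap divided by the range was 0.894, above the critical value of Dixon's test at 4 samples. Over the 10 genes, 1 had such a gap where 0.5 are expected by chance, since about 1 group in 20 is set apart by chance. That rate assumes independent samples, and 2 of the 4 libraries, at 14.6 and 15.4 FPKM, are of line 682. The dox library of the same line was at 25.0 FPKM.

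The dox change of Cd44 pointed in opposite directions in the pairs of the 2 environments. Cd44 was lower with dox in both BME dox pairs (-1.10 and -0.54), and also in the mock pair (-0.57), where Smad4 differed by 0.19, and higher in all 3 plastic pairs (0.74, 2.17 and 1.21), and the difference of 2.07, tested as an interaction in limma, had an unadjusted p of 0.00618 and did not pass over all genes (limma adjusted p 1.000). The BME change alone was -0.69 with a 95% interval of -1.61 to 0.22, and -0.11 without dox line 700. Without 1 library at a time the difference between environments was 1.48 to 2.65.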

How the results depend on the processing

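No member passed under any alternative, and the lowest limma adjusted p was 0.0949 in BME (Lgr5), 0.216 on plastic (Cd44) and 0.764 for the interaction (Cd44). Of 135 member values in BME, 14 changed sign, as did 22 of 95 on plastic and 19 of 151 for the interaction, and the cause was not tested. With the replicate block 0 genes were called in BME (3 without it) and 7 on plastic (4 without it), and for members the block turned Sox9 in BME to 0.11 and changed no other direction and no call. With a pseudocount of 0.1 the calls were 1 and 10, and Tnfrsf19 on plastic was -0.04. In limma-voom the calls were 1 and 11, with Smoc2 at 0.01 and Tnfrsf19 at -0.03 on plastic. Without the filter 0 genes were called on plastic and 5 in the interaction. Centring put Lrig1 on plastic at -0.01. With the mock library left out, counted with dox, counted with dox in a block, or with line 682 left out, 0 genes were called in BME. Counting it with dox gave 0.02 for Smoc2, -0.01 for Bmi1 and 0.15 for Sox9, with or without the block, and -0.08 for the Smoc2 interaction. Sox9 was 0.11 without line 682. Without line 560, 0 genes were called on plastic, and values were 0.62 for Smoc2, -0.01 for Tnfrsf19, -0.25 for Lrig1 and -0.11 for Bmi1, while Lgr5 fell under the filter and had no value there or for the interaction in lines 700 and 889 alone. In those lines the Bmi1 interaction was -0.14.

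With 1 library left out at a time, calls ranged from 0 to 37 in BME and from 0 to 55 on plastic, highest without dox line 700 in each, and were 0 throughout for the interaction. They were 0 in BME without dox line 889 or any 1 of the 4 controls (249 to 999 genes at an unadjusted p under 0.05), and on plastic 2 without dox line 889 and 0 without dox line 560 or any 1 untreated library (600 to 1277). In BME the changes ranged from -1.38 to 0.27 for Ascl2, -1.22 to 0.95 for Tnfrsf19, -0.16 to 0.54 for Bmi1, -0.12 to 0.66 for Msi1, -0.72 to 0.27 for Sox9, -0.44 to -0.14 for Smoc2, and -1.28 (without dox line 889) to -0.11 (without dox line 700) for Cd44, and from -1.60 (without dox line 889) to -0.41 (without dox line 700) for Lgr5. On plastic they ranged from -0.96 to 1.38 for Lgr5, -0.88 to 1.47 for Ascl2, -0.98 to 1.54 for Smoc2, -0.65 to 0.86 for Tnfrsf19, -0.24 to 0.25 for Lrig1, -0.64 to -0.05 for Sox9 and -0.05 to 0.43 for Bmi1. The interaction ranged from 0.04 to 2.38 for Lgr5, -0.33 to 2.02 for Ascl2, -0.69 to 1.83 for Smoc2, -0.81 to 1.37 for Tnfrsf19, -0.28 to 0.42 for Bmi1 and -0.65 to 0.34 for Sox9. With 2 dox libraries in BME, leaving out 1 leaves an arm of 1, which is assumed to vary like the other arm. Depth limits Olfm4 and Msi1, and Lgr5 in plastic dox line 700.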
